A study of Mus musculus with 5 samples.

Results

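The genes described here are 10 interferon-induced GTPases of the mouse, 6 guanylate-binding proteins (Gbp2, Gbp3, Gbp5, Gbp6, Gbp7 and Gbp9) and 4 immunity-related GTPases (Irgm1, Irgm2, Igtp and Iigp1). They were taken by symbol from a read count table of 54532 genes, in which each had 1 row, and all 10 were among the 17906 genes kept by the filter on low counts. Expression was measured by bulk RNA-seq in 5 small cell lung cancers, lung tumours of neuroendocrine cells, collected at necropsy and frozen. The groups were 2 tumours given vehicle and 3 given LSN, the label's name for an inhibitor of the mitotic kinase Aurora A. All 5 carried the genotype RPP, whose letters the labels do not expand. For the age of the mice, the dose, the length of treatment and how the tumours were started, the sources used here give nothing. Whether each tumour came from its own mouse is not stated either, so p-values measure only the spread between these samples, which may be technical. Numbers of replicates name the tumours and pair nothing.

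Total counts were between 17439049 and 19766604 per tumour, and values are given as CPM, counts scaled to a common library size by the TMM method, where a floor of 3 counts was worth 0.159 to 0.168 CPM. Neuroendocrine markers, used to check the label, were present in every tumour, with 1504 to 3086 counts of Syp. The 12 markers of this list summed to 2965 CPM in vehicle replicate 2, lower than the 6937 to 10891 CPM of the other tumours. The summed normal lung epithelium markers were 6587 and 8796 CPM with vehicle and 1943, 382 and 1228 CPM with LSN, and 10 of these 12 markers were lower in every LSN tumour. Of 11 endothelial markers, 10 were below both vehicle tumours in all 3 LSN tumours. Of all genes tested, 10.4% were so, the share to set beside both lists. In pieces of tissue, fewer cells of a type and less RNA per cell cannot be told apart.

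Guanylate-binding proteins and immunity-related GTPases are among the genes most strongly induced by interferon gamma, and type I interferon induces many of them too. Their products assemble on the membranes of vacuoles that hold bacteria or parasites and on exposed bacterial surfaces, where they help to break the compartment and to activate inflammasomes. The immunity-related GTPases divide into effectors such as Iigp1 (also called Irga6) and regulators, Irgm1, Irgm2 and Igtp (also called Irgm3), which sit on the cell's own membranes and hold the effectors inactive there. Among the factors through which interferons reach these genes are IRF1 and IRF9. Interferon gamma acts in part through the gamma-activated site, here searched as TTC and GAA separated by any 3 bases. The IRF factors bind the interferon-stimulated response element, here searched as GAAA followed, after any 2 bases, by GAAA, on both strands.

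Promoters of the members are shown because the response element motif stood in all of those that could be examined. RefSeq promoter windows of build GRCm38.p6, from 250 bases before to 50 bases after the transcription start, were present for 7 of the 10 members, Gbp2, Gbp3, Gbp5, Gbp7, Irgm1, Irgm2 and Igtp. Each of the 7 genes held this motif on one of the strands, against 3.99% of 27025 genes and 3.44% of all 32851 windows of this length. Gbp3 had a further window, at a later start, without it. Capitals mark the motif in the stretches below, which read 5′ to 3′ on the strand of the gene and stop at the transcription start where that comes first. Stretches of Gbp2 and Irgm1 are shorter because they overlap exons annotated by GENCODE M21, which hold 22 of the 30 bases shown for Gbp2 and all 30 for Irgm1. The last 18 bases of the Gbp3 stretch are exonic too. They lie at chr3:142620594-142620623 (Gbp2, plus strand), chr3:142559964-142560043 (Gbp3, plus), chr3:142496734-142496813 (Gbp5, plus), chr3:142530248-142530327 (Gbp7, plus), chr11:48871428-48871457 (Irgm1, minus), chr11:58214878-58214957 (Irgm2, plus) and chr11:58199487-58199555 (Igtp, plus).
Gbp2: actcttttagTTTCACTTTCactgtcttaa
Gbp3: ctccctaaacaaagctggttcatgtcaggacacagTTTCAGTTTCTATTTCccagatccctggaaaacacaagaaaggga
Gbp5: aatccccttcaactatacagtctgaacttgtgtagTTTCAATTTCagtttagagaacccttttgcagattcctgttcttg
Gbp7: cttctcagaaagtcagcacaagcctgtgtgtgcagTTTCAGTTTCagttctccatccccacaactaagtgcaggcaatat
Irgm1: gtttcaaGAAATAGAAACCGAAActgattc
Irgm2: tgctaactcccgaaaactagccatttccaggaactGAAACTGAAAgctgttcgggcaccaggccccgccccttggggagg
Igtp: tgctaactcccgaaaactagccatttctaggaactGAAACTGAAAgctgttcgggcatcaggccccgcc

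The GBP promoters carried the motif in the reverse orientation and the 3 regulators of the IRG family in the forward one. In Gbp3 and Irgm1, 2 matches overlapped and share bases in the capitals. The match nearest the start ended 14 bases before it in Irgm1, 24 in Igtp, 29 in Gbp3, 43 in Gbp7, 49 in Gbp2, 54 in Irgm2 and 155 in Gbp5. Igtp and Irgm2 had the most similar pair of windows, identical in 244 of 335 aligned columns (72.8%), whereas the next pair, Gbp3 and Gbp7, reached 51.1%. The gamma-activated site matched in 4 of the 7 genes (Gbp5, Gbp7, Irgm2 and Igtp), against 9.55% of all genes, and could overlap the other motif. Of the lists used below, the response element motif was in the windows of 5 of 7 other GTPase genes of these families, 10 of 18 type I interferon induced genes, 2 of 13 interferon gamma induced genes and 0 of 9 autophagy genes. A match is a string of letters and was not examined for binding.

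Irgm1 (chromosome 11, 48861968 to 48871683, minus strand), the regulator that also acts in autophagy and in the control of mitochondria, was the most abundant member by CPM in the mean of the tumours. It measured 16.6 and 30.3 CPM in vehicle replicates 1 and 2 and 45.4, 50.6 and 24.8 CPM in LSN replicates 1, 2 and 3. The first and the second LSN tumour lay above both vehicle tumours and the third between them, so that the groups overlapped. The LSN mean was 40.3 ± 13.6 CPM (SD, n = 3), beside a vehicle mean of 23.5 ± 9.68 CPM (SD, n = 2). Its edgeR log2 fold change was 0.78 ± 0.45 (SE), with an unadjusted p = 0.142. Its adjusted p over all genes tested was 0.9996 (edgeR quasi-likelihood test, Benjamini-Hochberg), the same value as for every other member.

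Igtp (chromosome 11, 58199556 to 58207591, plus strand), a regulator found on the endoplasmic reticulum and lipid droplets, showed the largest difference of the 10. Its values were 12.2 and 15.8 CPM with vehicle and 46.4, 40.6 and 14.7 CPM with LSN. LSN replicates 1 and 2 were far above the vehicle tumours, while LSN replicate 3 lay between them. Means of 33.9 ± 16.9 CPM (SD, n = 3) and 14.0 ± 2.54 CPM (SD, n = 2) gave a log2 fold change of 1.27 ± 0.57 (SE), a ratio of 2.42. By edgeR its unadjusted p was 0.0706 and its adjusted p 0.9996. Without LSN replicate 3, the lowest LSN tumour for Igtp, the log2 fold change was 1.63 (edgeR, unadjusted p = 0.00747, adjusted p = 0.9998). In that fit 2.89% of genes were under 0.05. Without LSN replicate 1 or 2 the log2 fold change was 0.97 and 1.12 (edgeR, unadjusted p = 0.172 and 0.153). Without vehicle replicate 1 or 2 it was 1.11 and 1.47. With all 5 tumours, the DESeq2 p was 0.0418 unadjusted (adjusted p = 0.74). With no count filter, the edgeR p was 0.0434 unadjusted (adjusted p = 0.928), where 3.15% of genes were under 0.05.

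Irgm2 (chromosome 11, 58199618 to 58222782, plus strand), the regulator associated with the Golgi, followed the same order of tumours as Irgm1 among the LSN samples. It stood at 14.6 and 20.0 CPM with vehicle and at 31.6, 38.1 and 12.1 CPM with LSN. LSN replicate 3 was the lowest of the 5 tumours and LSN replicate 2 the highest. The log2 fold change was 0.66 ± 0.56 (SE), with an unadjusted p of 0.287 by edgeR. Without LSN replicate 3 it was 1.01 (edgeR, unadjusted p = 0.0479, adjusted p = 0.9998), where 2.89% of genes were under 0.05. Without LSN replicate 1 or 2 it was 0.53 and 0.34 (edgeR, unadjusted p = 0.452 and 0.595). Without vehicle replicate 1 or 2 it was 0.46 and 0.91. In the annotation GENCODE M21 the model of Irgm2 begins inside Igtp and shares 162 exon bases with it on the same strand. These are 8.01% of the exon bases of Igtp and 4.39% of those of Irgm2, and the sources used here do not say how reads in them were counted. The ratio of Igtp to Irgm2 counts was 0.838 and 0.79 with vehicle and 1.47, 1.07 and 1.21 with LSN, without allowance for gene length. Divided by the deposited gene length in kb, CPM of Igtp were above those of Irgm2 in every tumour. These were 6.04 and 7.81 against 3.95 and 5.42 with vehicle, and 22.9, 20.1 and 7.25 against 8.56, 10.3 and 3.29 with LSN.

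Iigp1 (chromosome 18, 60376029 to 60392627, plus strand), an effector that coats parasite vacuoles, did not follow the regulators. Its values were 8.61 and 21.9 CPM with vehicle and 28.1, 5.31 and 12.7 CPM with LSN. LSN replicate 1 was the highest tumour and LSN replicate 2, in which Irgm1 and Irgm2 peaked, the lowest. The group means, 15.4 ± 11.6 CPM (SD, n = 3) and 15.3 ± 9.43 CPM (SD, n = 2), nearly coincided, with a log2 fold change of 0.01 ± 0.81 (SE) that turned negative with limma-voom (-0.15) and with total counts without TMM (-0.047). Counts of Iigp1 relative to Irgm1 were between 0.512 and 0.724 in 4 of the tumours, but 0.105 in LSN replicate 2.

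**Figure D1:**
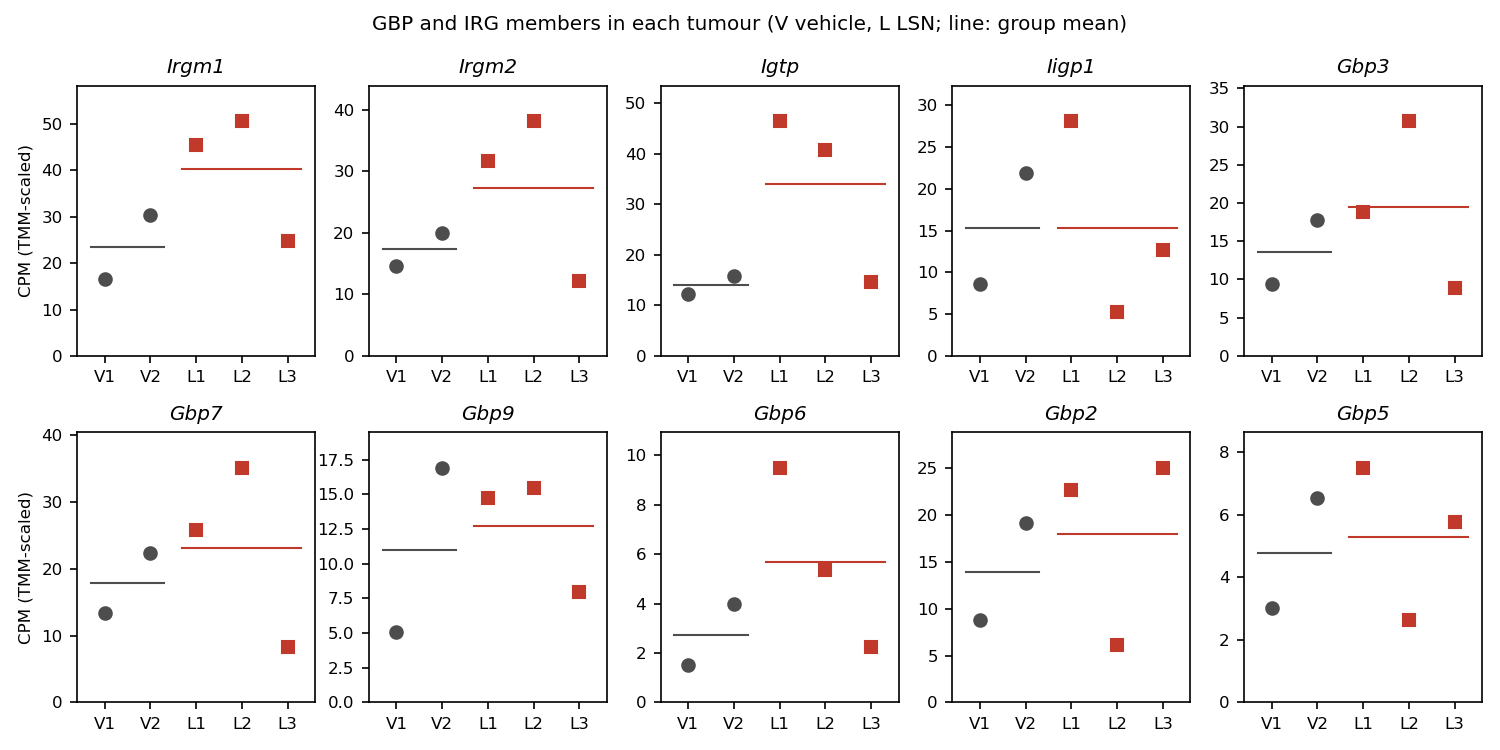
TMM-scaled CPM (y axis, linear, from 0) of the 10 members in vehicle replicates 1 and 2 (V1, V2, grey circles) and LSN replicates 1 to 3 (L1 to L3, red squares), with lines at the group means. Irgm1, Irgm2, Igtp, Gbp3 and Gbp7 are high in L1 and L2 and low in L3, while Gbp2, Gbp5 and Iigp1 are lowest in L2.

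Among the guanylate-binding proteins, 4 members lie in 1 cluster of 144031 bases on chromosome 3, in the order Gbp5 (142493978 to 142522344), Gbp7 (142530342 to 142550149), Gbp3 (142560026 to 142573209) and Gbp2 (142620602 to 142638008), all on the plus strand, with Gbp2b between Gbp3 and Gbp2. Gbp7, which takes part in the delivery of the phagocyte oxidase to vacuoles, was at 13.3 and 22.3 CPM with vehicle and 25.8, 35.2 and 8.37 CPM with LSN. Gbp3, its neighbour, was at 9.36 and 17.8 CPM with vehicle and 18.8, 30.7 and 8.89 CPM with LSN. In both genes LSN replicate 2 was the highest of the 5 tumours and LSN replicate 3 the lowest. Log2 fold changes were 0.37 ± 0.67 (SE) for Gbp7 and 0.52 ± 0.64 (SE) for Gbp3, with unadjusted p of 0.596 and 0.449 by edgeR.

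The other two genes of this cluster had another order of tumours. Gbp2, which attacks bacteria and parasite vacuoles and feeds inflammasomes, was at 8.82 and 19.1 CPM with vehicle and 22.6, 6.11 and 25.0 CPM with LSN. LSN replicate 2 was the lowest tumour and LSN replicate 3 the highest, the reverse of Gbp3 and Gbp7. Gbp5, a promoter of NLRP3 inflammasome assembly, was at 3.01 and 6.53 CPM with vehicle and 7.51, 2.63 and 5.77 CPM with LSN, again lowest in LSN replicate 2. Log2 fold changes were 0.36 ± 0.73 (SE) for Gbp2 and 0.15 ± 0.70 (SE) for Gbp5, with unadjusted p of 0.639 and 0.836 by edgeR.

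Counts of Gbp2 relative to Gbp3 showed this divergence within single tumours, independent of library scaling. The ratio was 0.943 and 1.07 with vehicle and 1.20 in LSN replicate 1, but 0.199 in LSN replicate 2 and 2.81 in LSN replicate 3, a spread of 14.2 times. Gbp2 supplied 2.66% of the counts of the 10 members in LSN replicate 2 (95% Wilson interval 2.22 to 3.18%, counting error only) and 20.4% in LSN replicate 3 (18.8 to 22.1%). In the other 3 tumours its share was 9.04 to 10.9%. The vehicle tumours and LSN replicate 1 thus held about equal counts of these 2 genes, and the LSN group held both extremes.

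Gbp9 (105077630 to 105139539) and Gbp6 (105270702 to 105293698) belong to the cluster on the minus strand of chromosome 5. Gbp9 was at 5.11 and 16.9 CPM with vehicle and 14.7, 15.4 and 7.94 CPM with LSN, so that all LSN tumours lay between the vehicle tumours. Gbp6, which had the lowest CPM of the members in the mean of all 5 tumours but not in the mean of the LSN tumours, where Gbp5 was lower, was at 1.51 and 3.96 CPM with vehicle and 9.5, 5.36 and 2.22 CPM with LSN. Its first and second LSN tumours exceeded both vehicle tumours and the third did not. Log2 fold changes were 0.21 ± 0.66 (SE) for Gbp9 and 1.06 ± 0.86 (SE) for Gbp6, with unadjusted p of 0.765 and 0.267 by edgeR. The exons of Gbp6 share 1726 bases (29.0%) with the gene model Gm43302, which had 0 to 1 counts per tumour. Of the 150-base windows of its transcripts, 59.1% also occur in transcripts of other genes, against 8.77% for Gbp7 and under 1% for each of the other 8 members, so that values of Gbp6 are uncertain.

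Compared as groups, the 10 members were slightly higher with LSN on average and none separated the groups. All 10 log2 fold changes were above 0 (9 with limma-voom or with total counts, where Iigp1 was below), as were 53.2% of all genes tested, and their median was 0.45 beside 0.03 over all genes. No member had its 3 LSN values all above the vehicle values (0 of 10, beside 8.48% of all genes) or all below them (0 of 10, beside 10.4%). By edgeR, 0 members passed an adjusted p of 0.05, and 0% of all genes did. At an unadjusted p under 0.05 there were 0 members and 4.27% of genes (1.06% higher and 3.21% lower with LSN), DESeq2 having 1 member (Igtp) and 6.27% of genes, and limma-voom 0 members and 4.75%. DESeq2 called 0 members after adjustment and 0.539% of genes. Exact two-sided permutation tests over the 5 tumours gave p between 0.4 and 1 for single members, where 2 against 3 tumours cannot give less than 0.1.

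**Figure D2:**
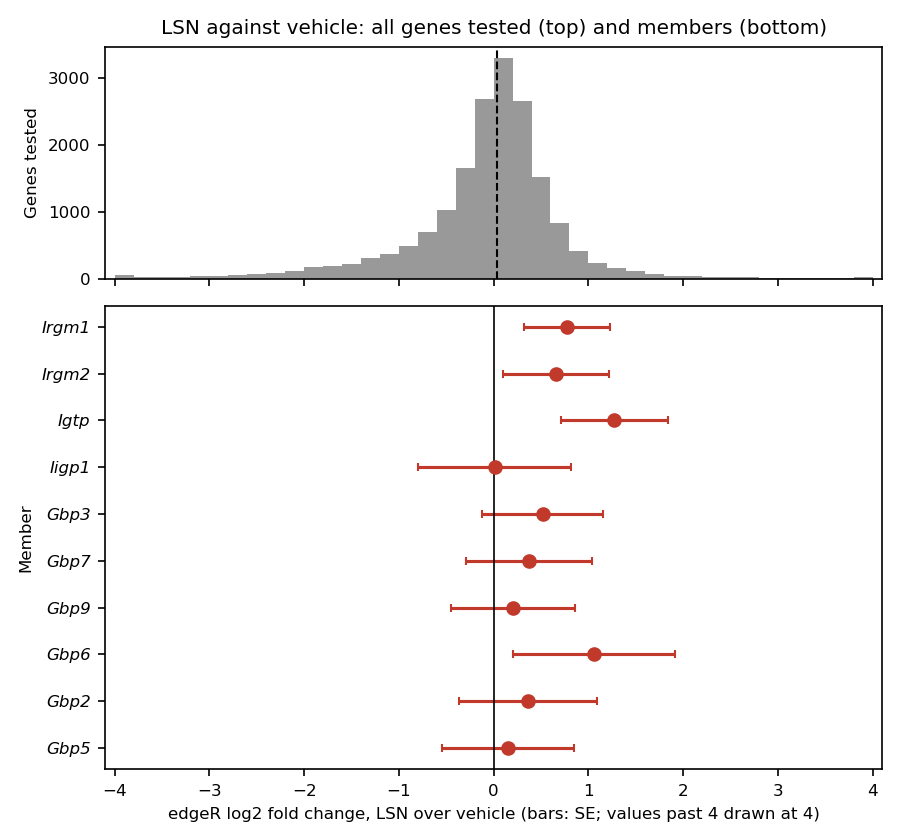
Top, number of genes tested (y axis) by edgeR log2 fold change of LSN over vehicle (x axis, values beyond 4 drawn at 4), with a dashed line at their median of 0.03. Bottom, the same quantity for each member with its standard error; all 10 points lie above 0 (9 with limma-voom or total counts), from 0.01 for Iigp1 to 1.27 for Igtp, and the bars of Iigp1, Gbp3, Gbp7, Gbp9, Gbp2 and Gbp5 cross 0.

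Summed over the 10 members, expression was 93.2 and 174.7 CPM in the vehicle tumours and 250.5, 230.0 and 122.6 CPM in the LSN tumours. LSN replicate 3 lay between the vehicle tumours. The means of 201.0 ± 68.7 CPM (SD, n = 3) and 133.9 ± 57.6 CPM (SD, n = 2) overlapped in their tumours (exact two-sided permutation test, p = 0.4). The IRG members summed to 52.0 and 88.0 CPM with vehicle and 151.5, 134.6 and 64.3 CPM with LSN, and the GBP members to 41.1 and 86.6 CPM with vehicle and 99.1, 95.4 and 58.2 CPM with LSN.

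Differences between tumours of the same group were as large as those between the groups. All 10 members were higher in vehicle replicate 2 than in vehicle replicate 1, by 1.29 to 3.31 times, where 50.1% of all genes were higher. In LSN replicate 1, 9 members exceeded both vehicle tumours (30.9% of all genes did) and 0 were below both (32.2% of genes), Gbp9 lying between them. For LSN replicate 2 the number was 6 (36% of all genes) with 3 members below both vehicle tumours, Gbp2, Gbp5 and Iigp1 (36.8% of all genes). In LSN replicate 3 only Gbp2 exceeded both vehicle tumours, where 33.3% of all genes did, and 3 members, Gbp3, Gbp7 and Irgm2, were below both (34.4% of genes). LSN replicate 3 was lower than LSN replicate 1 for 9 members (50.2% of genes) and lower than LSN replicate 2 for 7 (49.6%). The highest of the 5 values fell in vehicle replicate 1 for 0 members (16% of genes), vehicle replicate 2 for 1 (21.4%), LSN replicates 1 and 2 for 4 each (17.4% and 24.8%) and LSN replicate 3 for 1 (20.4%). The lowest value fell in vehicle replicate 1 for 4 members (16.3% of genes), LSN replicate 2 for 3 (24.7%), LSN replicate 3 for 3 (20.4%), and vehicle replicate 2 and LSN replicate 1 for 0 (21.1% and 17.4%).

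The size of the comparison depended on single tumours. Without vehicle replicate 1 the median log2 fold change of the members was 0.10, 6 of 10 values were above 0, and 1 member, Gbp9, had every LSN tumour below the remaining vehicle tumour, beside 26.3% of all genes. Without vehicle replicate 2 it was 1.04, and 4 members, Irgm1, Igtp, Gbp9 and Gbp6, had every LSN tumour above the remaining vehicle tumour, beside 20.3% of all genes. Without LSN replicate 3 it was 0.82, with 6 members (Irgm1, Irgm2, Igtp, Gbp3, Gbp7 and Gbp6) above both vehicle tumours in both remaining LSN tumours, beside 14.5% of all genes, and 2 members at an unadjusted p under 0.05 by edgeR, beside 2.89% of all genes. The median was 0.37 without LSN replicate 1 and 0.45 without LSN replicate 2, where 1 member, Gbp2, had both remaining LSN tumours above the vehicle tumours, beside 14.5% of all genes. By edgeR no member passed the adjusted threshold in any of these 5 fits.

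**Figure D3:**
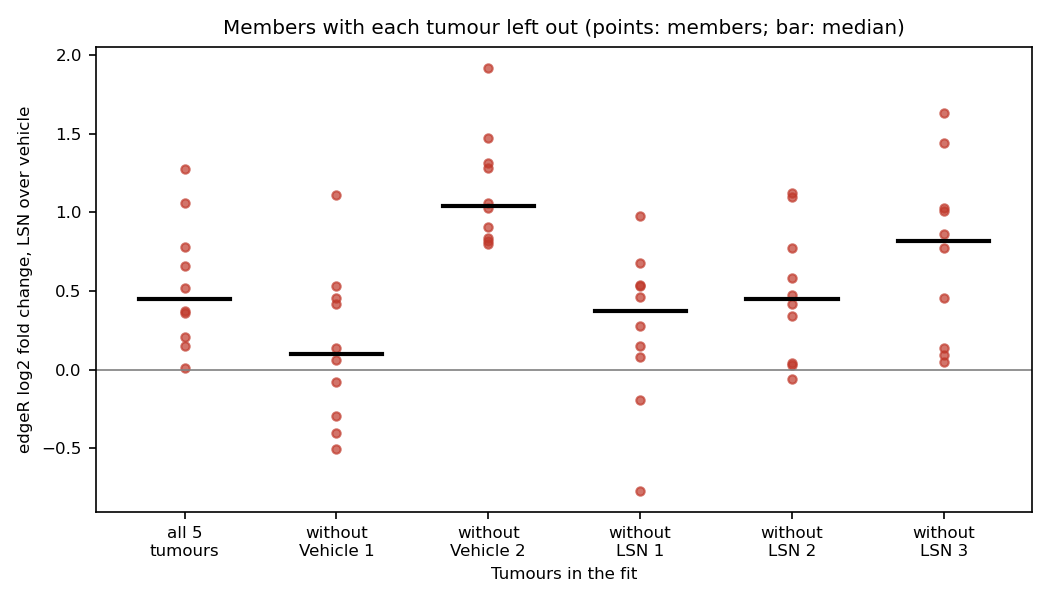
edgeR log2 fold changes of the 10 members (y axis; red points) with all 5 tumours and with each tumour left out (x axis), and their median (black bar). The median moves from 0.45 to 0.10 without vehicle replicate 1 and to 1.04 without vehicle replicate 2.

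The members fell into 2 kinds of profile across the tumours, a grouping made after the values were seen. As a measure of likeness, the root mean square difference between log2 CPM profiles, each centred on its mean over the 5 tumours, was 0.21 between Gbp3 and Irgm2, 0.21 between Gbp3 and Gbp7 and 0.28 between Irgm1 and Irgm2. It was 0.29 between Gbp2 and Gbp5 and 0.34 between Gbp5 and Iigp1. Between Gbp2 and Gbp7, on the same chromosome, it was 1.3, the largest of the 45 pairs. Gbp2, Gbp5 and Iigp1 together summed to 20.4 and 47.6 CPM with vehicle and 58.3, 14.0 and 43.5 CPM with LSN, and the remaining 7 members to 72.7 and 127.1 CPM with vehicle and 192.3, 216.0 and 79.0 CPM with LSN. By sum, the first set was lowest in LSN replicate 2 and the second highest there. Irgm1, Irgm2, Gbp3 and Gbp7 were each highest in that tumour. Gbp6 and Igtp peaked in LSN replicate 1 and Gbp9 in vehicle replicate 2. Root mean square differences within the second set reached 0.61 (Gbp9 and Igtp). The nearest pair across the sets, Gbp5 and Gbp9, had 0.72, so the sets were not far apart.

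Compared per length, with CPM divided by the deposited gene length in kb, Igtp had the highest mean level of the 10, at 12.8 ± 8.02 CPM per kb (SD, n = 5 tumours of both groups). In LSN replicate 3, however, Gbp2 was above Igtp, at 9.95 against 7.25 CPM per kb. In vehicle replicate 2 they were close, at 7.59 and 7.81 CPM per kb. By mean, the order below Igtp was as follows. Gbp2 (6.49 ± 3.35), Irgm2 (6.31 ± 3.03), Irgm1 (5.77 ± 2.44), Gbp3 (5.24 ± 2.72) and Iigp1 (4.91 ± 3.04 CPM per kb) followed, with neighbours in this order closer than their spread. Gbp7 had 3.74 ± 1.88 and Gbp9 2.33 ± 1.0 CPM per kb. Gbp5 and Gbp6 were lowest, with 0.77 and 0.76 CPM per kb, below the lowest tumour of Gbp7 (1.49 CPM per kb) in their means. With the longest transcript of GENCODE M21 as the length, Gbp5 stood at 1.36 and Gbp6 at 1.06 CPM per kb, still the lowest pair, while Irgm1 moved to 8.76 CPM per kb, the second highest. With the summed exons of GENCODE M21, 5823 bases for Iigp1 in place of the deposited 3121, Iigp1 stood at 2.63 CPM per kb, below Gbp7, so that its place in the order is uncertain.

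Of 17 other genes of these families and of the very large inducible GTPases, 13 passed the filter on low counts, 7 with a log2 fold change above 0 and 6 below, a median of 0.07, and 0 of them at an unadjusted p under 0.05 by edgeR. Tgtp2, an effector of the IRG family on chromosome 11, resembled Irgm2 and Gbp7, at 7.10 and 9.32 CPM with vehicle and 18.6, 30.1 and 3.76 CPM with LSN. Tgtp1, its near-identical neighbour, was at 1.67 and 8.32 CPM with vehicle and 5.58, 1.45 and 2.17 CPM with LSN. Reads shared by this pair may be split between them, which leaves their single values uncertain. Irgq, a relative that is not known for induction by interferon, varied least of the 13. It was at 47.5 and 49.1 CPM with vehicle and 54.5, 58.3 and 53.2 CPM with LSN. Its LSN values all exceeded its vehicle values, which held for 1 gene of the 13, beside 8.48% of all genes tested.

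The remaining genes of these families with a mean of at least 1 CPM mostly had vehicle replicate 1 at the bottom. Gbp8 was at 1.56 and 4.35 CPM with vehicle and 8.84, 2.25 and 4.66 CPM with LSN, and Gbp4 at 5.49 and 8.60 CPM with vehicle and 6.35, 5.14 and 4.55 CPM with LSN. Gm12250, the effector known as Irgb10, was at 0.592 and 2.34 CPM with vehicle and 3.65, 1.45 and 1.91 CPM with LSN. Gm4951, which lies near Iigp1 on chromosome 18, was at 0.484 and 4.69 CPM with vehicle and 3.81, 0.697 and 1.80 CPM with LSN, so that LSN replicate 2 was low in it as in Iigp1. Of the others, 9930111J21Rik2 had 2.85 to 8.04 CPM, 9930111J21Rik1 0.484 to 3.31 CPM, Gm4070 0.484 to 3.41 CPM and Gvin1 0.376 to 2.46 CPM, each lowest in vehicle replicate 1. Gbp2b, the gene of this list with the smallest p, had 1 and 1 counts with vehicle and 12, 0 and 18 with LSN.

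**Figure D4:**
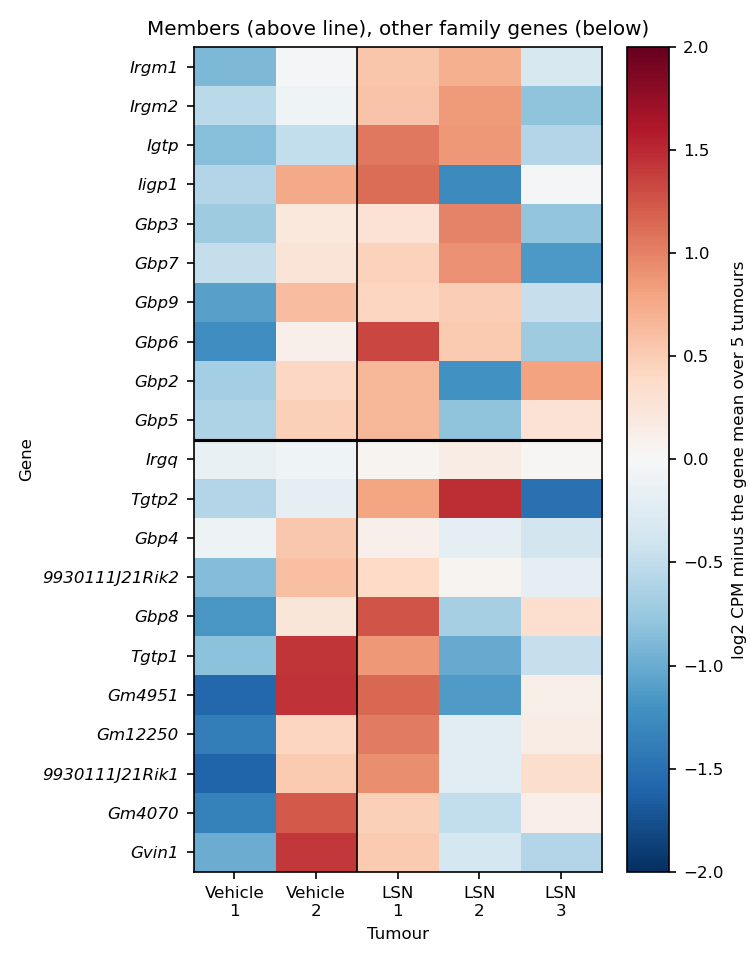
Log2 CPM of each gene minus its mean over the 5 tumours (colour scale), for the 10 members above the black line and the 11 other family genes with a mean of at least 1 CPM below it, in the 2 vehicle and 3 LSN tumours (columns). In LSN replicate 2, Iigp1, Gbp2 and Gbp5 are blue while the remaining members are red, and Irgq is near 0 in every tumour.

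Interferon ligands were almost without reads. Ifng, the main inducer of these families, had 0 and 4 counts with vehicle and 0, 0 and 1 with LSN, and Ifnb1, Ifna1, Ifna2 and Ifna4 had 0 counts in all 5 tumours, which allows up to 0.159 to 0.168 CPM. Of the 23 ligands, receptors and signalling factors, 18 were tested, 15 of them with a log2 fold change above 0 and a median of 0.12, and 0 at an unadjusted p under 0.05 by edgeR. Without LSN replicate 2, 8 of the 18 were above 0 and the median was -0.066.

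Irf9, a DNA-binding factor of the type I interferon response, was at 23.4 and 38.4 CPM with vehicle and 32.8, 89.0 and 20.6 CPM with LSN. Irf7, which amplifies type I interferon, was at 11.1 and 21.6 CPM with vehicle and 28.2, 69.3 and 13.0 CPM with LSN. Irf1, which drives guanylate-binding protein genes, stood higher in all 3 LSN tumours, narrowly so in replicate 1, at 50.7, 65.8 and 62.0 CPM against 39.0 and 50.2 CPM, and its log2 fold change was 0.41 ± 0.27 (SE; edgeR, unadjusted p = 0.175). LSN replicate 3 was second highest for Irf1. It was lower than LSN replicate 1 for 9 members and lower than LSN replicate 2 for 7, but below both vehicle tumours for only 3.

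Other interferon gamma induced genes had a median log2 fold change of 0.57 over 19 of 21 measured, 15 above 0 and 4 below, with 1 at an unadjusted p under 0.05 by edgeR (Cd274). The gene of PD-L1, Cd274, was at 32.2 and 22.1 CPM with vehicle and 54.1, 44.0 and 51.9 CPM with LSN, and Psme2, a proteasome activator subunit, at 50.6 and 64.1 CPM against 79.2, 92.6 and 84.0 CPM. Both were high in LSN replicate 3, unlike Igtp and Irgm2. The 25 other type I interferon induced genes had a median of 0.57, 19 above 0 and 6 below, with 1 at an unadjusted p under 0.05 by edgeR, Dtx3l (log2 fold change 0.93 ± 0.35, SE). Without LSN replicate 2 the median of this list was -0.31, with 9 above 0 and 16 below. The median of the interferon gamma list was then 0.16, with 13 above 0 and 6 below. Trim25 was at 79.2 and 66.5 CPM with vehicle and 93.2, 178.7 and 110.0 CPM with LSN. The summed type I list was between 605.4 and 658.9 CPM in 4 tumours and 1287 CPM in LSN replicate 2, whereas the summed members were 250.5 CPM in LSN replicate 1 and 230.0 CPM in LSN replicate 2.

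Genes that work with these GTPases showed no shared direction. A list of 13 autophagy genes was drawn chiefly from the conjugation system that helps to load the GTPases onto vacuoles. Of these, 6 had a log2 fold change above 0 and 7 below, a median of -0.066, and 0 reached an unadjusted p under 0.05 by edgeR. The autophagy receptor gene Sqstm1 was at 271.0 and 232.5 CPM with vehicle and 371.5, 425.0 and 277.6 CPM with LSN, and Atg10 at 12.5 and 8.04 CPM against 6.79, 4.98 and 5.77 CPM. Of 9 inflammasome and pyroptosis genes, 2 were above 0 and 7 below, with a median of -0.45 and 0 at an unadjusted p under 0.05. Gsdmd, the pore-forming gasdermin cut by the inflammasome caspases, was lower in every LSN tumour, at 13.7, 13.9 and 8.15 CPM against 21.6 and 23.7 CPM (edgeR, log2 fold change -0.92 ± 0.40, SE; unadjusted p = 0.0626, adjusted p = 0.9996). Pycard, the adaptor ASC, was at 15 and 24.3 CPM against 13.6, 15.6 and 13.3 CPM.

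Markers of immune cells differed between the tumours in ways that in part resembled the family. T and NK cell markers summed to 19.4 and 41.0 CPM with vehicle and 34.5, 15 and 38.0 CPM with LSN, with 13 of 15 tested, 5 above 0 and 8 below, and Cd3e at 4 to 43 counts. The median log2 fold change of this list was -0.43, and without vehicle replicate 2 it was 0.58, with 12 above 0 and 1 below. Macrophage and monocyte markers summed to 894.1 and 3332 CPM with vehicle and 1403, 819.8 and 1468 CPM with LSN, 9 of 15 above 0 and 6 below. Dendritic cell markers summed to 46.2 and 127.4 CPM with vehicle and 85.8, 58.7 and 69.1 CPM with LSN. Each of these lists was lower in vehicle replicate 1 than in vehicle replicate 2, as were all 10 members. The T and NK cell list was lowest in LSN replicate 2, as were Gbp2, Gbp5 and Iigp1 and unlike the 7 other members. The macrophage list was lowest there only by its sum, while its mean log2 CPM was lowest in vehicle replicate 1, at 3.83 against 4.06 in LSN replicate 2. The dendritic cell list had its lowest sum in vehicle replicate 1. Its mean log2 CPM was lowest in LSN replicate 2, at 0.589 against 1.79 in vehicle replicate 1. The part of these cell types in the values of the members was not tested.

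Of the other cell types, neutrophils ordered the tumours by sum as the T and NK cell and macrophage lists did. LSN replicates 1 and 3 were almost equal in it. The remaining cell types gave other orders. Sums of neutrophil, B and plasma cell, and fibroblast and smooth muscle markers were also lower in vehicle replicate 1 than in vehicle replicate 2. Neutrophil markers summed to 6.08 and 31.5 CPM with vehicle and 8.95, 5.79 and 8.95 CPM with LSN, with Ly6g at 0 counts in all tumours. B and plasma cell markers summed to 288.5 and 1362 CPM with vehicle and 65.0, 743.5 and 700.9 CPM with LSN, fibroblast and smooth muscle markers to 803.8 and 1661 CPM against 940.8, 793.7 and 522.4 CPM, and endothelial markers to 757.7 and 631.2 CPM against 212.3, 714.4 and 544.6 CPM. Vwf, named after its values were seen, was at 438.8 and 49.5 CPM with vehicle and 52.4, 540.0 and 424.6 CPM with LSN. It made up most of the endothelial sum in vehicle replicate 1 and LSN replicates 2 and 3, but not in the other tumours. The mean log2 CPM of the endothelial list was 5.19 and 5.57 with vehicle and 3.96, 4.16 and 3.74 with LSN, all LSN tumours being below both vehicle tumours. LSN replicate 1, which had the highest summed members, was lowest for B and plasma cell markers. The neuroendocrine markers summed to 8447 and 2965 CPM with vehicle and 7053, 10891 and 6937 CPM with LSN. A part of these cell types in the levels of the members was not tested.

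**Figure D5:**
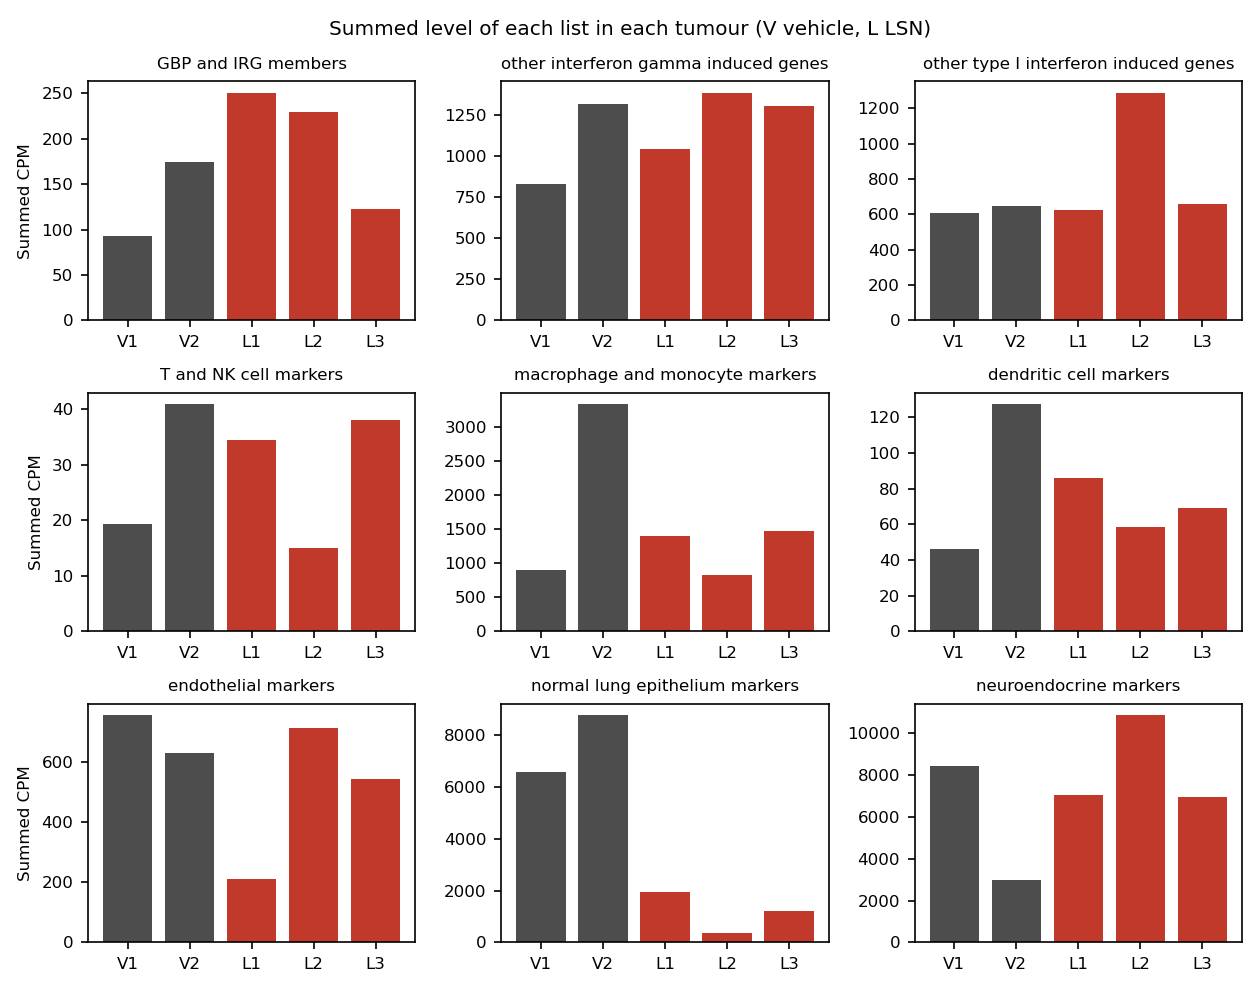
Summed TMM-scaled CPM (y axes, linear, from 0, separate scales) of the members and 8 gene lists in vehicle replicates 1 and 2 (V1, V2, grey bars) and LSN replicates 1 to 3 (L1 to L3, red bars). The members are highest in L1 and L2, the type I interferon list in L2 alone, while markers of T and NK cells are lowest in L2; the macrophage sum is lowest there too, but not the mean log2 CPM of that list.

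Other genes near the members were compared too, with the families themselves left out. Over 1413 genes of chromosome 11 the median log2 fold change was 0.34, over 57 genes within 2 Mb of Igtp and Irgm2 it was 0.50, and over 33 genes within 2 Mb of Irgm1 it was 0.25, beside 0.03 over all genes. The log2 fold changes of Irgm1, Irgm2 and Igtp, at 0.78, 0.66 and 1.27, were above these medians. By tumour, the genes around Igtp and Irgm2 had a median centred log2 CPM of -0.17 and -0.40 with vehicle and 0.19, -0.0039 and 0.37 with LSN, so that LSN replicate 3 was the highest tumour for the neighbours, the lowest for Irgm2 and the second lowest for Igtp. The genes around Irgm1 had -0.18 and 0.051 with vehicle and 0.26, 0.094 and -0.052 with LSN. For them, as for Irgm1 itself, vehicle replicate 1 was lowest, LSN replicate 3 next lowest, and LSN replicates 1 and 2 highest. Whether a shift of the whole chromosome contributes to the values of Irgm1, Irgm2 and Igtp was not tested.

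Elsewhere the neighbourhood differed. On chromosome 3 the 12 genes within 2 Mb of the Gbp cluster had a median log2 fold change of -0.12, and on chromosome 5 the 23 genes near Gbp9 and Gbp6 one of 0.12. The 33 genes within 2 Mb of Iigp1 had a median centred log2 CPM between -0.058 and 0.30 in 4 tumours and of -0.45 in LSN replicate 2, and all 442 genes of chromosome 18 had -0.43 there and 0.018 to 0.19 elsewhere. Iigp1 itself was 1.27 below its own mean in LSN replicate 2.

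Outside the family, the 5 protein-coding genes whose profile lay nearest the mean centred profile of the 10 members, among 12475 genes with a mean of at least 5 CPM, were Soat1, Arhgef40, Mpp1, Aak1 and Bag2, with root mean square differences of 0.11 to 0.14 over the 5 tumours. Soat1, an enzyme that esterifies cholesterol, was at 83.5 and 135.8 CPM with vehicle and 229.1, 160.7 and 97.3 CPM with LSN. The mean profile of the members was -0.77 and 0.22 with vehicle and 0.71, 0.20 and -0.37 with LSN. It averages the 2 kinds of profile described above, and likeness over 5 tumours among so many genes is a description only.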

How the data were processed

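RNA of 5 tumours was sequenced as paired ends from non-stranded libraries. The authors mapped reads to mm10 with STAR and used DESeq2, per the labels' protocols. For the read counter and the annotation, the sources used here give no name. Values deposited by the authors were raw read counts per gene and a gene length in bases. Of the 54532 genes, 54409 had an identifier of GENCODE M21, 98.3% of them with the same start and end; 9 of the 10 members matched and Iigp1 did not. Coordinates of genes are those of the deposited table. Without strand, reads from overlapping genes on opposite strands are not distinguished, and near-identical family members may share reads.

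Members and lists were chosen with earlier results of these data known. LSN was compared with vehicle over all genes with the quasi-likelihood test of edgeR 4.0.16 (R 4.3.3; robust fit, TMM, filterByExpr at minimum counts of 10 per sample and 15 in total), with Benjamini-Hochberg adjustment at 0.05 and 3 residual degrees of freedom. Sums and levels are in CPM of these counts. Log2 CPM used a prior count of 2. Standard errors are the log2 fold change divided by the square root of F. The fit was checked on simulated counts. Named genes were all members, other family genes with a mean of at least 1 CPM, the 2 genes of smallest p in each pathway list with Ifng, Irf1, Irf7, Irf9 and Cd274, and the 5 genes of nearest profile; others were named after their values were seen, among them the interferon ligands, Syp, Cd3e and Ly6g. Alternatives were DESeq2 1.42.0, limma 3.58.1 with voom, other scalings, no filter, a fit that was not robust, and each tumour left out; lone vehicle tumours were then assumed to vary like the LSN group. A gene that the rule names and 1 marker are not reported here.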

Additional observations from a re-analysis of the deposited data

How the results depend on the processing

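By edgeR 0 genes passed the adjusted threshold in every alternative fit, and limma-voom also gave 0, while DESeq2 called 100 genes, 14 higher and 86 lower. One member, Igtp, reached an unadjusted p under 0.05 with DESeq2 and with no count filter (1 member each). With a tumour left out, 0 to 2 members did so, 0 to 6 members lay above the vehicle tumours in every LSN tumour and 0 to 1 below, and the median log2 fold change of the members was 0.10 to 1.04. Over the 6 alternatives that keep all 5 tumours, 58 of 60 member values were above 0, the exceptions being Iigp1 with limma-voom (-0.15) and with total counts (-0.047). With a tumour left out the ranges reached below 0 for Gbp2 (-0.082 to 1.03), Gbp5 (-0.29 to 0.82), Gbp7 (-0.061 to 0.80), Gbp9 (-0.40 to 1.32) and Iigp1 (-0.77 to 0.84), and the cause was not tested. Igtp stayed between 0.97 and 1.63, Irgm1 between 0.42 and 1.28, Irgm2 between 0.34 and 1.01 and Gbp6 between 0.46 and 1.92. List medians with a tumour left out ranged from -0.33 to 1.68 for the other family genes, -0.066 to 0.34 for ligands, receptors and signalling factors, 0.16 to 0.75 for interferon gamma induced genes, -0.31 to 0.84 for type I interferon induced genes, -0.76 to 0.34 for inflammasome genes, -1.01 to 0.58 for T and NK cell, -0.39 to 1.06 for macrophage, -1.27 to 0.074 for dendritic cell, -2.43 to 0.52 for neutrophil, -2.0 to 0.41 for B and plasma cell, -1.06 to -0.29 for fibroblast and 0.15 to 1.93 for neuroendocrine markers. The median of the neighbours of the chromosome 3 cluster was -0.37 within 1 Mb and 0.017 within 5 Mb. No paired analysis was possible because the labels pair no tumours between the groups, and the replicate numbers only name the tumours. The depth behind single members was 28 to 944 counts per tumour, so that the spread between tumours, not counting error, limits the comparison.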

Other observations

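Aim2, the DNA sensor of an inflammasome that guanylate-binding proteins feed, was chosen after its values were seen. It was at 1.13 and 35.3 CPM with vehicle and 32.6, 2.63 and 3.76 CPM with LSN, a larger spread than that of any of the 10 members. Vehicle replicate 2 and LSN replicate 1 were high, and the other 3 tumours low. Aim2 had a log2 fold change of -0.48 ± 1.61 (SE). Casp1 and Casp4, the caspases of this pathway, were both highest in vehicle replicate 2, at 7.14 and 5.92 CPM, and both lowest in LSN replicate 2, at 3.70 and 2.36 CPM. Cxcl9, a chemokine induced by interferon gamma and also chosen after its values were seen, was at 1.56 and 2.18 CPM with vehicle and 9.55, 0.643 and 10.9 CPM with LSN, which is the order of low and high LSN tumours seen in Gbp2.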
